A study of Mus musculus with 34 samples.

Results

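The regions described here lie in and around 10 genes that direct the first lineage choices of the mouse embryo, and they were examined in embryonic stem cells of 2 inbred strains and 2 reciprocal congenic lines. The genes are Gata4, Gata6, Sox17, Foxa2, T, Eomes, Cdx2, Otx2, Fgf5 and Pax6, which is 10 of 21884 protein-coding genes in the GENCODE M21 annotation of GRCm38. A member region is one that overlaps a member's gene body extended by 10 kb on both sides, called its gene window. This gave 59 of the 248336 regions in the list shared by 3 of the 4 count tables and 29 of the 96988 regions in the list of the fourth, which holds H3K27ac in separate lines. Foxa2 has no region in that second list. No member lies on chromosome 13, where the congenic segment is.

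H3K27ac, acetylation of lysine 27 of histone H3, marks active promoters and enhancers, and H3K9me3, trimethylation of lysine 9, marks heterochromatin. Embryonic stem cells kept with serum, leukaemia inhibitory factor and inhibitors of MEK and GSK3 (PD0325901 and CHIR99021) resemble the naive epiblast, in which most lineage regulators are held ready but little transcribed. Gata4, Gata6 and Sox17 drive primitive endoderm, and Foxa2 acts later in endoderm. T, also named Brachyury, and Eomes act in the primitive streak, Cdx2 in trophectoderm, Otx2 and Fgf5 in the epiblast as it leaves the naive state, and Pax6 in the neural tube and eye.

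B6 stands for the strain C57BL/6J and D2 for DBA/2J, and 3 separate lines of each were profiled per mark. For B6 these were 4-1, 4-4 and 5-1, and for D2 they were 2-9, 5-5 and 203. A further series repeated libraries of 1 line per genotype: B6 5-1, D2 5-5, QJ 6-1 and XE 2-4. QJ 6-1 is B6-13D2, a B6 line with a chromosome 13 segment from D2, and its strain is B6.D2-(rs30079041-rs51756099)/Bakr. XE 2-4 is D2-13B6, the reciprocal line, whose end marker differs between the series text and the sample labels. The H3K9me3 antibody was the same throughout, whereas H3K27ac was precipitated with an abcam antibody in the separate lines and one from Cell Signaling Technology in the repeated libraries. H3K27ac levels were therefore not compared between those series.

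For H3K27ac, counts in regions summed to 15444270 to 18272793 in libraries of separate lines and to 8735674 to 11543469 in repeated ones. H3K9me3 libraries held 1487862 to 2559262 and 1538145 to 2185977 counts, so H3K9me3 values at single regions rest on few reads. Replicate 1 of D2-13B6 stood apart in both marks. Its counts differed from those of the other replicates of its line with a chi-square per degree of freedom of 2.79 to 2.81 in H3K27ac, against 0.905 to 1.03 for all other pairs of that series, and of 2.46 and 2.47 in H3K9me3, against 1.05 to 1.55. Where the call of a window or region named here changed without it, the value without it is given. In the repeated H3K27ac series, 1 pair of libraries of each line differed by less than sampling noise, and its summed counts served as a single sample, so n = 2 per line. The repeated libraries are technical replicates, so their p-values measure the spread between libraries of 1 line, and the genotype cannot be told apart from the line that carries it.

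The 4 stretches of 300 bases printed here are the middles of 4 regions to which the results return; other regions with larger changes are given by position only. They were read from the plus strand of GRCm38.p6 (RefSeq), with CG dinucleotides, the site of most DNA methylation in mammals, in capitals. They lie past the end of Otx2, in an intron of Cdx2 near its start, in an intron of Pax6, and just upstream of the annotated Pax6 start, inside an intron of the antisense gene Pax6os1.
Otx2 downstream, chr14:48653675-48653974: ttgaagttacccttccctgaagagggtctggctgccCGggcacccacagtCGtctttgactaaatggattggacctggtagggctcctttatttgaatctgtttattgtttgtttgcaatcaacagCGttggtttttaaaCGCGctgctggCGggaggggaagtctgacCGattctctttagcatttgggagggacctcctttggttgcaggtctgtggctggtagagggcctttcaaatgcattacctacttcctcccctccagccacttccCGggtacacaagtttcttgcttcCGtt
Cdx2 intron, chr5:147305553-147305852: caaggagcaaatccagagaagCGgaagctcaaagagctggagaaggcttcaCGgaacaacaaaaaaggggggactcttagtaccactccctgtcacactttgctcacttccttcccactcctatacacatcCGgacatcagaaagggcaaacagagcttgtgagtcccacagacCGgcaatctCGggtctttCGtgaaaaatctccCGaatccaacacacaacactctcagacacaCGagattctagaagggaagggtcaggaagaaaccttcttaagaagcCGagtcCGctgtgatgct
Pax6 intron, chr2:105687893-105688192: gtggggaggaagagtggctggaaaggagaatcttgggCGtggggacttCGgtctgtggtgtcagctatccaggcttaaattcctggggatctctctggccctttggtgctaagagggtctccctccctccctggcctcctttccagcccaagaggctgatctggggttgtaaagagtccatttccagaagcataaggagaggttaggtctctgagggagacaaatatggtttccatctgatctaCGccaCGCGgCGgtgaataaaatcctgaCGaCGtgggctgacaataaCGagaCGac
Pax6 start, chr2:105668553-105668852: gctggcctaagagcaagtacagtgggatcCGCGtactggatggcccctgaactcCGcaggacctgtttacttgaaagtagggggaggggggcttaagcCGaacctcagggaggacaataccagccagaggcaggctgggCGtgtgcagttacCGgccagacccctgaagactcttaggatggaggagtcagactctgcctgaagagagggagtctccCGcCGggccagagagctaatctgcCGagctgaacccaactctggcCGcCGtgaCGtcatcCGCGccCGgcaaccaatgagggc
These hold 9, 10, 10 and 15 CG dinucleotides. Over the 51 member regions for which a sequence was read, the median was 11, with a range of 1 to 47, and 39 of the 51 were above the median of 4 in the same windows of all 248336 regions. The 8 Gata6 regions were not read. A CG count describes the sequence and says nothing of its methylation, which was not measured.

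At its start the median member carried little H3K27ac for a gene of this genome and ranked above the median gene in H3K9me3. H3K27ac within 1 kb of the annotated gene start, in CPM (counts scaled to a common depth in regions) per kb of region, placed the median member at percentile 38.6 of all protein-coding genes in the separate lines (SD 1.88 over 6 libraries) and at percentile 35.5 in the repeated libraries (SD 1.29 over 8 samples). For H3K9me3 the median member stood at percentile 77.5 (SD 5.78 over 6 libraries) and 85.2 (SD 5.33 over 10 libraries). Single members departed from this: in H3K27ac, Cdx2 stood at 53.3 in the separate D2 lines and Otx2 at 54.0 in the separate B6 lines, and in H3K9me3 Otx2 stood at 48.1 in the separate B6 lines. Genes without a region at the start are listed at 0 and tie at a percentile of 25.4 in H3K27ac of the repeated B6 libraries and of 35.3 in the separate lines. Gata4 and Sox17 are such genes in both lists, and Foxa2 and Pax6 also in the separate lines, so the member median there lies just above the tie. In H3K9me3 too Gata4 and Sox17 had no region at the annotated gene start. Both had a shared-list region over an inner transcript start, which this measure leaves out. These were chr1:4491467-4494102 for Sox17 and chr14:63244334-63246811 for Gata4. Fibroblast genes too stood above the median gene in H3K9me3, at a median percentile of 63.4 in B6 and 74.8 in D2 of the separate lines and 68.3 (B6-13D2) to 78.8 (D2) in the repeated libraries. Pluripotency genes stood at 46.6 to 54.9 over both series. Against other regions rather than other genes, H3K9me3 in member regions had a median of 2.96 CPM per kb in the separate lines, below the 3.30 of all regions (20 of 59 above it), and 5.15 in the repeated libraries, above the 4.17 of all regions (41 of 59). In both, 0 of 59 exceeded the 90th percentile.

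The stem cell identity of the lines was checked on 10 pluripotency genes at the same distance. These had a median H3K27ac percentile of 98.9 in the separate B6 lines and 98.2 in D2, with Esrrb alone at 0. Of 10 fibroblast genes that would mark feeder cells, 7 were at 0 in the separate lines (Col1a1, Col1a2, Col3a1, Lum, Postn, Prrx1 and Twist2). Their summed H3K27ac was 7.82 to 9.10 CPM per kb in B6 and 6.29 to 7.20 in D2. In the repeated libraries 3 of the 10 were at 0, and the sum was 11.5 to 11.9 in B6, 18.7 to 18.8 in B6-13D2, 25.3 to 26.9 in D2, 12.7 in D2-13B6 replicate 1, the library that stood apart, and 27.01 in the other D2-13B6 sample. The sum differed between the lines, and its part in the results on the repeated libraries was not tested.

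Otx2 carried the most H3K27ac per kb of its window in the repeated libraries of all 4 lines. In D2 its regions averaged 6.24 CPM per kb, against 5.54 in B6-13D2, 5.02 in D2-13B6 and 2.81 in B6. The next in D2 was Cdx2 at 1.92 CPM per kb, and Foxa2 was lowest at 0.749. Within the separate B6 lines, Gata4 averaged 4.98 CPM per kb, Otx2 4.38 and Eomes 4.23, and the lines of Otx2 and Eomes overlapped while those of Gata4 lay above both. Most of the Gata4 signal was in a region at the start of another gene, Neil2. In the separate D2 lines Otx2 led with 4.92 and Sox17 followed with 3.96. Among single regions, 1 of 59 exceeded the 90th percentile of all regions in the repeated libraries, and 2 of 29 did so in the separate lines.

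**Figure D1:**
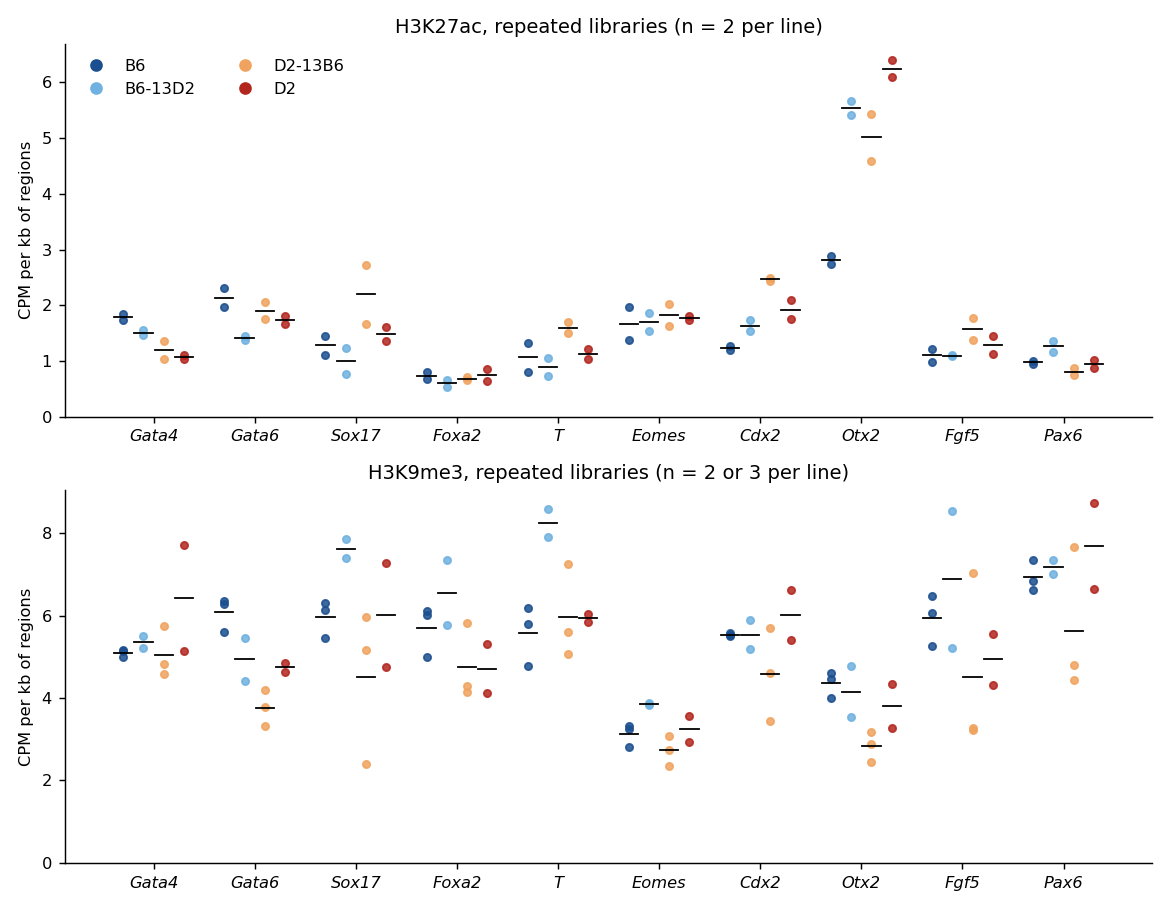
H3K27ac and H3K9me3 levels of the member gene windows in the repeated libraries, in CPM per kb of region on the vertical axis. Each point is 1 sample and each bar the mean of a line. Otx2 stands above the other members in H3K27ac, with B6 at 2.81 and D2 at 6.24 CPM per kb, while H3K9me3 line means run from 2.73 CPM per kb at Eomes to 8.24 at T.

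The comparison of the strains asked how the chromatin of these genes differs between B6 and D2 lines. In H3K27ac, D2 was lower over the windows of Gata4, Eomes and Pax6 and higher over those of Sox17, Otx2 and Cdx2. This made 6 of 9 member windows, where 54.0% of all gene windows tested were called. By single regions, 12 of 29 were called, 7 higher and 5 lower, beside 49.3% of all regions, 24.3% higher and 25.0% lower. The members were thus called about as often as other genes. The median log2 fold change (D2 over B6) over member windows was 0.09, and that over all windows was 0.01. In these bulk preparations, a mark on fewer cells and less of the mark per cell cannot be told apart.

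Of the member windows, that of Gata4, an endoderm regulator, had the largest fold change. It measured 22.6, 23.9 and 24.7 CPM in the B6 lines and 14.1, 13.3 and 13.9 CPM in the D2 lines, with no overlap. The log2 fold change was -0.79 (SE 0.08, n = 3 lines per strain, edgeR adjusted p = 2.77e-07). That difference lay outside Gata4 itself, in a region 4.25 kb past its end that covers the start of Neil2, a DNA repair glycosylase gene. This region, chr14:63191966-63194669, fell from 17.9, 16.8 and 18.6 CPM in B6 to 8.15, 8.49 and 7.83 CPM in D2, a log2 fold change of -1.12 (SE 0.10, adjusted p = 1.33e-13). Over the Gata4 gene body alone, the log2 fold change was 0.11 (SE 0.15, adjusted p = 0.581), the opposite sign. Within the gene, 1 intronic region at chr14:63255072-63256016 was higher in D2, by 0.57 on the log2 scale (SE 0.21, adjusted p = 0.0219), a call lost without B6 replicate 1, D2 replicate 1 or D2 replicate 3 (adjusted p = 0.109, 0.0536 and 0.0743) and with DESeq2 (0.0918).

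Sox17, which acts in endoderm, measured 9.57, 9.73 and 8.48 CPM in B6 and 11.4, 11.5 and 11.5 in D2. All D2 lines were above all B6 lines, and the log2 fold change of the window was 0.31 (SE 0.10, adjusted p = 0.0151). For Gata6 the window did not pass the test (0.14, SE 0.07, adjusted p = 0.0848), except under scaling to library totals (0.22, adjusted p = 0.0141), but an intron region 26.2 kb from its start was higher in D2. That region, chr18:11077637-11078808, measured 2.05, 2.14 and 2.15 CPM in B6 and 4.43, 4.41 and 4.03 CPM in D2 (log2 fold change 1.02, SE 0.18, adjusted p = 6.03e-06).

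Of the mesoderm genes, Eomes measured 65.1, 59.9 and 69.7 CPM in B6 and 54.1, 51.7 and 54.4 CPM in D2 (log2 fold change -0.28, SE 0.06, adjusted p = 0.000865). Its called region lay 8.92 kb downstream, at chr9:118495053-118499482, with a log2 fold change of -0.48 (SE 0.09, adjusted p = 1.48e-05). The region over the Eomes start did not pass the test (adjusted p = 0.791). T did not pass the test, at 6.01, 5.79 and 6.85 CPM in B6 and 5.28, 6.32 and 6.07 CPM in D2.

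Cdx2 and Otx2 were higher in D2. The region over the Cdx2 start, chr5:147303237-147307604, measured 11.8, 12.3 and 14.1 CPM in B6 and 17.0, 16.6 and 16.6 CPM in D2 (log2 fold change 0.40, SE 0.10, adjusted p = 0.000558). At Otx2, a broad region of 8972 bases from past the gene end into its last exon, chr14:48650637-48659608, measured 46.8, 42.4 and 38.5 CPM in B6 and 58.1, 57.3 and 56.3 CPM in D2. Its log2 fold change was 0.43 (SE 0.07, adjusted p = 3.02e-06), and the groups did not overlap. Farther past the end, chr14:48647828-48648800 measured 1.43, 1.89 and 1.20 CPM in B6 and 2.18, 3.14 and 2.42 CPM in D2. It was higher in D2 by 0.79 (SE 0.24, adjusted p = 0.00518), a call lost without D2 replicate 2 (0.62, adjusted p = 0.0648). Fgf5, the other epiblast gene, did not pass the test (0.09, SE 0.12, adjusted p = 0.569).

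Pax6 fell in D2 over its window as a whole. The window measured 23.0, 22.9 and 26.4 CPM in B6 and 18.2, 22.2 and 19.3 CPM in D2 (log2 fold change -0.27, SE 0.09, adjusted p = 0.0141). All 3 of its called regions were lower in D2, at log2 fold changes of -0.54, -0.89 and -0.52, and they lay next to each other with centres 19.4 to 22.3 kb from the gene start. The other tested region, chr2:105674237-105678145 over inner transcript starts, had the opposite sign (0.24, SE 0.11, adjusted p = 0.064) and was called without D2 replicate 1 (0.31, adjusted p = 0.0199). Of the called regions, the first was lost with DESeq2 (adjusted p = 0.143) and without B6 replicate 3 (0.431), D2 replicate 1 (0.125) or D2 replicate 2 (0.0618), and the second without D2 replicate 3 (0.0516). The window calls of Sox17, Otx2 and Pax6 were lost without B6 replicate 3 (adjusted p = 0.0838, 0.106 and 0.0833), Otx2 also without B6 replicate 2 (0.0551), and Cdx2 without B6 replicate 1, B6 replicate 2 or D2 replicate 2 (0.193, 0.112 and 0.175). Scaling to library totals ended the Pax6 call (adjusted p = 0.0615), DESeq2 size factors that of Cdx2 (0.17, adjusted p = 0.0508), DESeq2 those of Sox17 (0.0646) and Cdx2 (0.12), and an extension of 50 kb those of Gata4 (0.092) and Sox17 (0.318) and reversed Otx2 to -0.14. Eomes was not called over its gene body alone (-0.08, adjusted p = 0.424).

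H3K9me3 in the same lines could be tested at 14 of the 59 member regions, since the others had too few counts. Of these 4 were called, 3 higher and 1 lower in D2, beside 34.6% of all regions tested, 17.3% higher and 17.4% lower. Of the 10 gene windows, Pax6 was higher and Gata6 lower in D2, beside 20.1% of all windows. The other 8 windows did not pass the test, with log2 fold changes from -0.38 (Sox17) to 0.43 (Fgf5).

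The Pax6 window measured 47.1, 33.7 and 38.1 CPM of H3K9me3 in B6 and 60.8, 77.0 and 77.9 CPM in D2. All D2 lines were above all B6 lines, with a log2 fold change of 0.87 (SE 0.17, n = 3 lines per strain, edgeR adjusted p = 0.000122). An intron region 19.1 kb from the start, whose middle is printed above, differed most. This region, chr2:105687086-105689000, rose from 4.56, 5.34 and 3.15 CPM in B6 to 19.7, 25.7 and 26.4 CPM in D2 (log2 fold change 2.46, SE 0.30, adjusted p = 9.61e-09). Its counts were 7, 8 and 5 reads in B6 and 39, 67 and 57 in D2, so that it passed the minimum count through D2 alone. It overlaps the Pax6 region in which H3K27ac was lower in D2. The region over the Pax6 start, chr2:105668185-105669222, measured 3.91, 4.67 and 1.26 CPM in B6 and 7.08, 10.3 and 5.09 CPM in D2 (log2 fold change 1.23, SE 0.42, adjusted p = 0.0211), and was not called without B6 replicate 3 (adjusted p = 0.208) or with DESeq2 (0.139). The region over the start likewise passed the minimum count through D2 alone.

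At Gata6 the pattern ran the other way. Its intron region chr18:11077997-11078757 measured 7.81, 7.34 and 8.82 CPM of H3K9me3 in B6 and 0.505, 2.68 and 2.32 CPM in D2. The log2 fold change was -2.02 (SE 0.45, adjusted p = 0.000367), at the place where H3K27ac was higher in D2. These values rest on 12, 11 and 14 reads in B6 and 1, 7 and 5 in D2, and the region passed the minimum count through B6 alone. The Gata6 window as a whole differed by -0.58 (SE 0.19, adjusted p = 0.0244). That call was lost without any of the B6 replicates 1, 2 and 3 and without D2 replicate 1 (adjusted p = 0.0813, 0.0525, 0.0546 and 0.111), under scaling to library totals (0.116) and with DESeq2 (0.092). A region 2.52 kb past the end of Foxa2, chr2:148037786-148040353, which covers the start of 9030622O22Rik, was higher in D2 by 0.91 (SE 0.30, adjusted p = 0.0153). That call was lost with DESeq2 (adjusted p = 0.1205), with no filter on low counts (0.0677) and without B6 replicate 3 (0.128) or D2 replicate 2 (0.0818).

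**Figure D2:**
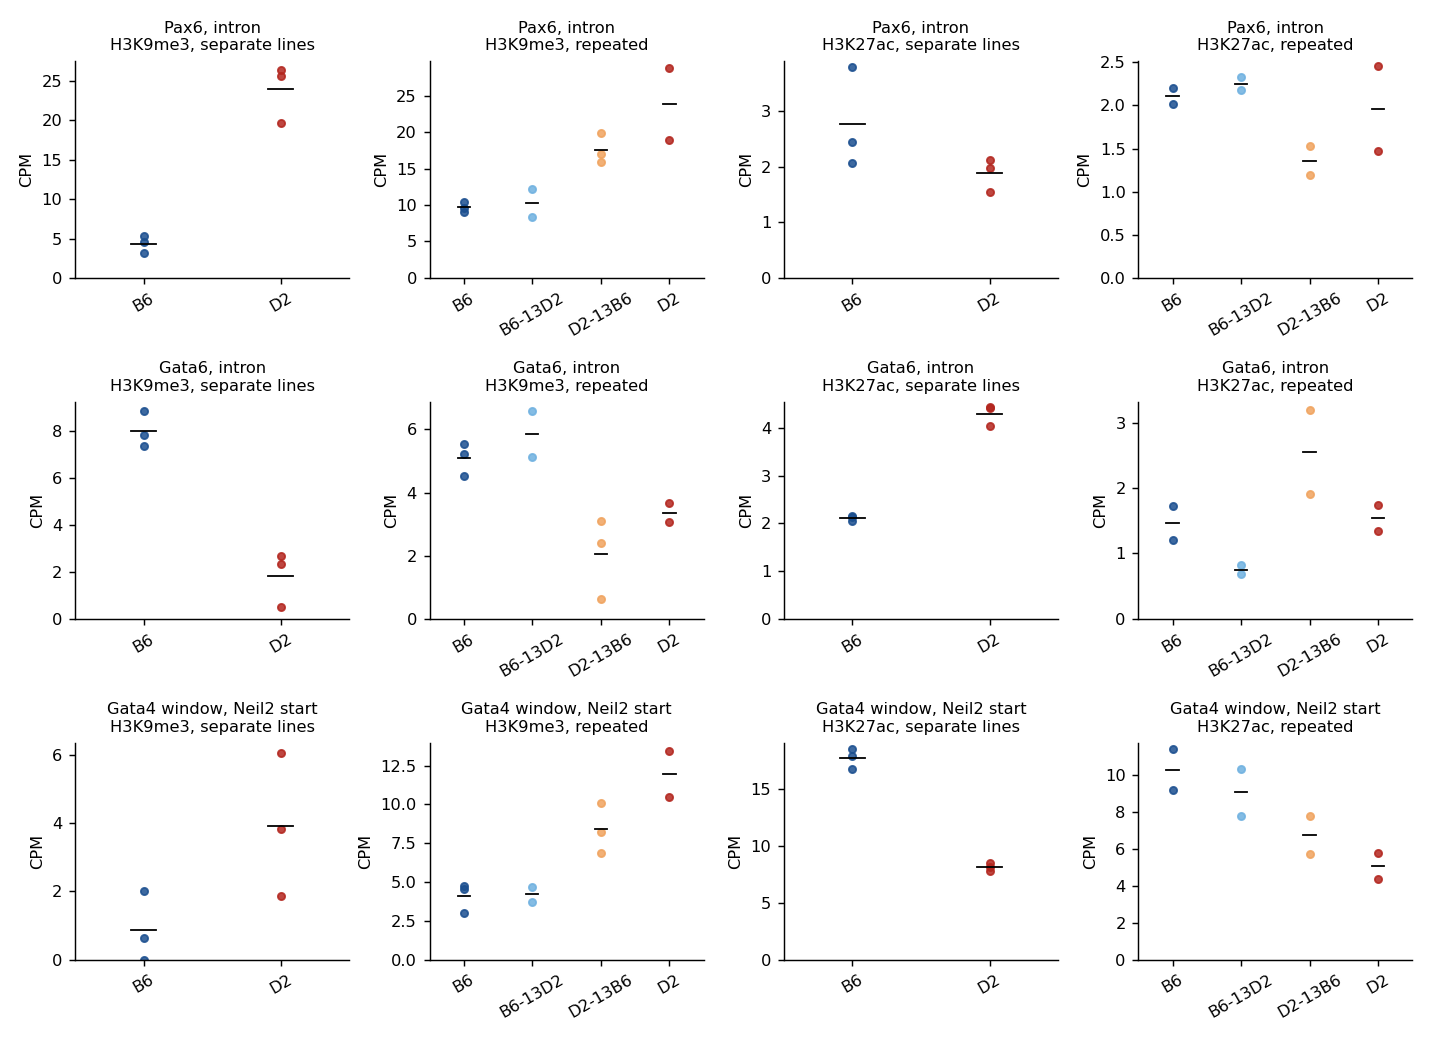
H3K9me3 and H3K27ac at the Pax6 intron, the Gata6 intron and the region at the Neil2 start in the Gata4 window, in CPM per sample, with bars at the mean. In the separate lines, the D2 mean is above that of B6 in H3K9me3 and below it in H3K27ac at Pax6, and the reverse holds at Gata6, where H3K9me3 is 7.34 to 8.82 CPM in B6.

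The repeated libraries of 4 lines asked which differences follow the genetic background, and which follow the chromosome 13 segment. The background contrast, the mean of D2 and D2-13B6 over the mean of B6 and B6-13D2, shares lines with the strain comparison (B6 5-1 and D2 5-5) and so is not independent of it. In H3K27ac, Cdx2, Otx2 and Sox17 were higher on the D2 background, and Gata4 and Pax6 were lower. That is 5 of 10 windows, beside 57.2% of all windows. Of 51 tested member regions 15 were called, 11 higher and 4 lower, beside 38.1% of all regions, 20.3% higher and 17.8% lower. The median log2 fold change over member windows was 0.20, beside 0.01 over all windows.

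For Cdx2 the log2 fold change of the window was 0.61 (SE 0.09, n = 2 samples per line, edgeR adjusted p = 3.16e-05), and the region over its start, chr5:147303678-147307728, gave 1.12 (SE 0.13, adjusted p = 4.31e-10). That region measured 4.62 and 4.07 CPM in B6, 6.99 and 8.52 in B6-13D2, 16.1 and 15.1 in D2-13B6, and 9.76 and 11.2 in D2. Both D2-background lines were above both B6-background lines, and D2-13B6 was highest.

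At Otx2, the region 1.31 kb past the gene end, chr14:48651285-48656365, had the highest H3K27ac per kb of all member regions in D2, at 12.9 CPM per kb. It also covers the start of Gm23469. It measured 18.3 and 20.8 CPM in B6, 40.6 and 40.4 in B6-13D2, 54.1 and 50.5 in D2-13B6, and 68.7 and 62.1 in D2. The 4 lines did not overlap, and the background effect was 1.06 (SE 0.09, adjusted p = 3.48e-13). Inside the gene the direction was the opposite: regions at chr14:48664681-48667151 and chr14:48668676-48669438 were lower on the D2 background, by -0.42 (SE 0.16, adjusted p = 0.0345) and -0.83 (SE 0.29, adjusted p = 0.0219). Both calls were lost with DESeq2 (adjusted p = 0.207 and 0.175) and without D2 replicate 2 (0.147 and 0.0871), the first also with no filter on low counts (0.0779) and without B6 replicate 3 (0.18) or D2 replicate 1 (0.0581), and the second without B6-13D2 replicate 2 (0.0636) or B6 replicate 2 (0.0566). The second covers the start of the antisense gene Otx2os1. Otx2 as a window was higher on the D2 background by 0.50 (SE 0.06, adjusted p = 1.77e-06), over the gene body alone lower by -0.47 (SE 0.11, adjusted p = 0.00175), and with a 50 kb extension -0.10 (adjusted p = 0.0734).

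For the endoderm genes, the region at the Neil2 start in the Gata4 window, chr14:63192897-63194443, measured 9.20 and 11.4 CPM in B6, 10.4 and 7.79 in B6-13D2, 7.78 and 5.72 in D2-13B6, and 5.78 and 4.35 in D2. D2-13B6 replicate 1, at 7.78 CPM, was just below the lowest B6-13D2 sample, at 7.79. The background effect was -0.72 (SE 0.14, adjusted p = 3.75e-05), and -0.79 without that replicate. The Gata4 window gave -0.55 (SE 0.10, adjusted p = 0.000144), and was not called over the gene body alone (-0.20, adjusted p = 0.286) or with a 50 kb extension (-0.01, adjusted p = 0.786). Sox17 was higher on the D2 background by 0.68 (SE 0.22, adjusted p = 0.0146) and, with a 50 kb extension that takes in other genes, -0.32 (adjusted p = 0.0782). The Sox17 window measured 3.83 and 2.93 CPM in B6 and 4.26 and 3.57 in D2, which overlapped. It measured 2.01 and 3.25 CPM in B6-13D2 and 7.19 and 4.38 in D2-13B6, where replicate 1 was the highest. Gata6 moved in both directions within one gene, with 4 regions higher, from 0.51 over its start to 1.28 in an intron 31.4 kb in, and 1 intron region lower (-0.78, SE 0.19, adjusted p = 0.000672). DESeq2 did not call the one over the start (0.0517) or chr18:11082011-11082550 (0.0566).

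T, Fgf5 and Eomes each had 1 called region although their windows did not pass the test. A region 3.85 kb upstream of T, chr17:8429235-8430574, measured 1.67 and 1.43 CPM in B6, 1.23 and 1.36 in B6-13D2, 3.49 and 3.65 in D2-13B6, and 2.56 and 2.23 in D2 (background effect 1.05, SE 0.20, adjusted p = 4.30e-05). The region over the Fgf5 start differed by 0.96 (SE 0.21, adjusted p = 0.000199), and a region 1.55 kb past Eomes by 0.48 (SE 0.14, adjusted p = 0.00408). The region over the Eomes start gave 0.33 (adjusted p = 0.102) and was called without D2-13B6 replicate 1 (0.38, adjusted p = 0.0264) or B6-13D2 replicate 2 (0.50, adjusted p = 0.033). Both T and Fgf5 regions were highest in D2-13B6. The window of Foxa2 differed by 0.07 (SE 0.15, adjusted p = 0.729). Pax6 was lower by -0.37 (SE 0.11, adjusted p = 0.00704), a call lost under scaling to library totals (adjusted p = 0.0536). The Pax6 window measured 14.2 and 13.4 CPM in B6 and 12.2 and 14.4 in D2, which overlapped. It measured 16.45 and 19.3 CPM in B6-13D2 and 12.3 and 10.5 in D2-13B6. The T window gave 0.44 (adjusted p = 0.054) and was called without B6-13D2 replicate 2, B6 replicate 1, D2-13B6 replicate 3 or D2 replicate 3 (adjusted p = 0.0318, 0.0127, 0.0491 and 0.0331), under scaling to library totals (0.54, adjusted p = 0.0324) and with a 50 kb extension (0.64, adjusted p = 5.49e-05).

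In H3K9me3, no member window was called for the background with edgeR, 3 had an unadjusted p under 0.05, and 23.9% of all windows were called. Scaling to library totals called 1 (Gata4, 0.37), and without replicate 1 of D2-13B6 4 were called, all lower on the D2 background: Gata6 (-0.42), Foxa2 (-0.46), Otx2 (-0.38) and Fgf5 (-0.67). With it these were -0.38, -0.38, -0.38 and -0.47 (adjusted p = 0.0646, 0.0643, 0.0729 and 0.14). Foxa2 and Otx2 were also called without D2 replicate 1 (-0.48 and -0.49). At single regions, 3 of 39 tested were called, 2 higher and 1 lower, beside 26.0% of all regions, 11.1% higher and 14.9% lower. The Pax6 intron region measured 9.04, 10.5 and 9.58 CPM in B6, 12.2 and 8.40 in B6-13D2, 19.9, 17.0 and 15.8 in D2-13B6, and 28.8 and 18.9 in D2. Both D2-background lines were above the others, by 1.02 (SE 0.20, adjusted p = 2.16e-05) and by 0.98 without the D2-13B6 replicate that stood apart. The Pax6 window as a whole gave -0.11 (SE 0.14, adjusted p = 0.594).

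The region at the Neil2 start carried 3.02, 4.71 and 4.54 CPM of H3K9me3 in B6, 4.70 and 3.73 in B6-13D2, 6.84, 8.24 and 10.1 in D2-13B6, and 13.5 and 10.5 in D2. H3K9me3 was higher there on the D2 background by 1.26 (SE 0.27, adjusted p = 0.000115), or 1.33 without that replicate, while H3K27ac was lower. For H3K9me3 this region passed the minimum count through D2 and D2-13B6 alone. The Gata6 intron region chr18:11077997-11078757 was lower by -1.01 (SE 0.36, adjusted p = 0.0286). Without D2-13B6 replicate 1, which measured 0.622 CPM against 3.09 and 2.40 in the other libraries of its line, the value was -0.82 and no longer called (adjusted p = 0.0623), and the call was also lost without B6-13D2 replicate 1 (0.0864) or B6 replicate 3 (0.0572) and with DESeq2 (0.176). H3K27ac at the same region was higher on the D2 background by 0.88 (SE 0.25, adjusted p = 0.00408), a call lost with DESeq2 (0.064).

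The segment comparison asked whether a D2 segment on chromosome 13 in a B6 line goes with a change at these genes, all of which lie on other chromosomes. In H3K27ac, the Otx2 window was higher in B6-13D2 than in B6 and the Gata6 window was lower, which is 2 of 10 windows beside 26.4% of all windows. Of 51 tested regions 8 were called, 4 higher and 4 lower, beside 13.0% of all regions, 7.60% higher and 5.40% lower. The 4 higher regions lay at Otx2, Cdx2 and Pax6, and the 4 lower ones at Gata6 and Gata4. The median over member windows was -0.14, and that over all windows 0.00 on the log2 scale. Over gene bodies alone, and without D2-13B6 replicate 1, 4 windows were called, with Cdx2 and Pax6 higher as well (0.36 and 0.32 without that replicate, adjusted p = 0.0233 and 0.0379, and 0.38 and 0.35 with it, adjusted p = 0.0515 and 0.0873).

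Otx2 rose over its window, from 33.5 and 35.4 CPM in B6 to 69.4 and 66.3 CPM in B6-13D2 (log2 fold change 0.99, SE 0.09, n = 2 samples per line, edgeR adjusted p = 5.26e-07). The region past its end gave 1.06 (SE 0.14, adjusted p = 9.86e-08). A region inside the gene over an inner transcript start, chr14:48661891-48663735, measured 4.43 and 4.62 CPM in B6 and 12.7 and 11.5 CPM in B6-13D2, an increase of 1.43 (SE 0.19, adjusted p = 2.43e-07). In D2 and D2-13B6 the same region measured 8.45 and 7.36 CPM and 6.99 and 4.79 CPM. B6-13D2 was thus the highest of the 4 lines at this region, whereas at the region past the end it lay between B6 and the D2-background lines.

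Cdx2 and Pax6 were higher in B6-13D2 at 1 region each. Over the Cdx2 start, the values of 4.62 and 4.07 CPM in B6 and 6.99 and 8.52 CPM in B6-13D2 gave 0.78 (SE 0.19, adjusted p = 0.00366). That call was lost without B6-13D2 replicate 2 (adjusted p = 0.0522) or B6 replicate 3 (0.0544). A Pax6 region over inner transcript starts, chr2:105673712-105678346, measured 4.58 and 4.29 CPM in B6 and 7.81 and 8.97 CPM in B6-13D2, an increase of 0.89 (SE 0.20, adjusted p = 0.00113). D2 and D2-13B6, at 5.02 and 5.36 CPM and 6.39 and 4.90 CPM, lay below B6-13D2.

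Gata6 fell, from 19.4 and 16.6 CPM over its window in B6 to 11.6 and 12.2 CPM in B6-13D2 (-0.62, SE 0.14, adjusted p = 0.00343). D2 stood at 15.2 and 13.9 CPM and D2-13B6 at 17.3 and 14.8 CPM, so B6-13D2 was lowest. Its 3 called regions were intronic, at log2 fold changes of -0.74, -1.07 and -1.24. Of these, chr18:11082011-11082550 measured 1.82 and 1.32 CPM in B6 and 0.822 and 0.453 CPM in B6-13D2. DESeq2 kept the 4 higher calls and none of the 4 lower ones, those of Gata6 (adjusted p = 0.253, 0.191 and 0.187) and 1 over an exon and inner transcript start of Gata4, chr14:63244334-63246811 (adjusted p = 0.341). With edgeR the Gata4 region gave -0.87 (SE 0.30, adjusted p = 0.0475), a call also lost with DESeq2 size factors (0.0635), with no filter on low counts (0.0698), and without any 1 of B6-13D2 replicates 1, 2 and 3, B6 replicates 2 and 3, or D2 replicates 1 and 2 (0.057 to 0.157). Of the Gata6 regions, the first 2 were also lost without B6-13D2 replicate 2, B6-13D2 replicate 3 or B6 replicate 3, the third without B6-13D2 replicate 2 or B6 replicate 1, and the first also without D2 replicate 2. Another Gata6 region, chr18:11077997-11078757, differed by -1.07 (adjusted p = 0.0575) and was called without D2-13B6 replicate 1 (adjusted p = 0.0192), as well as without D2-13B6 replicate 2 or 3 or B6-13D2 replicate 3, under scaling to library totals, with a mean of at least 20 counts and with unsummed libraries (0.0226 to 0.0484).

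**Figure D3:**
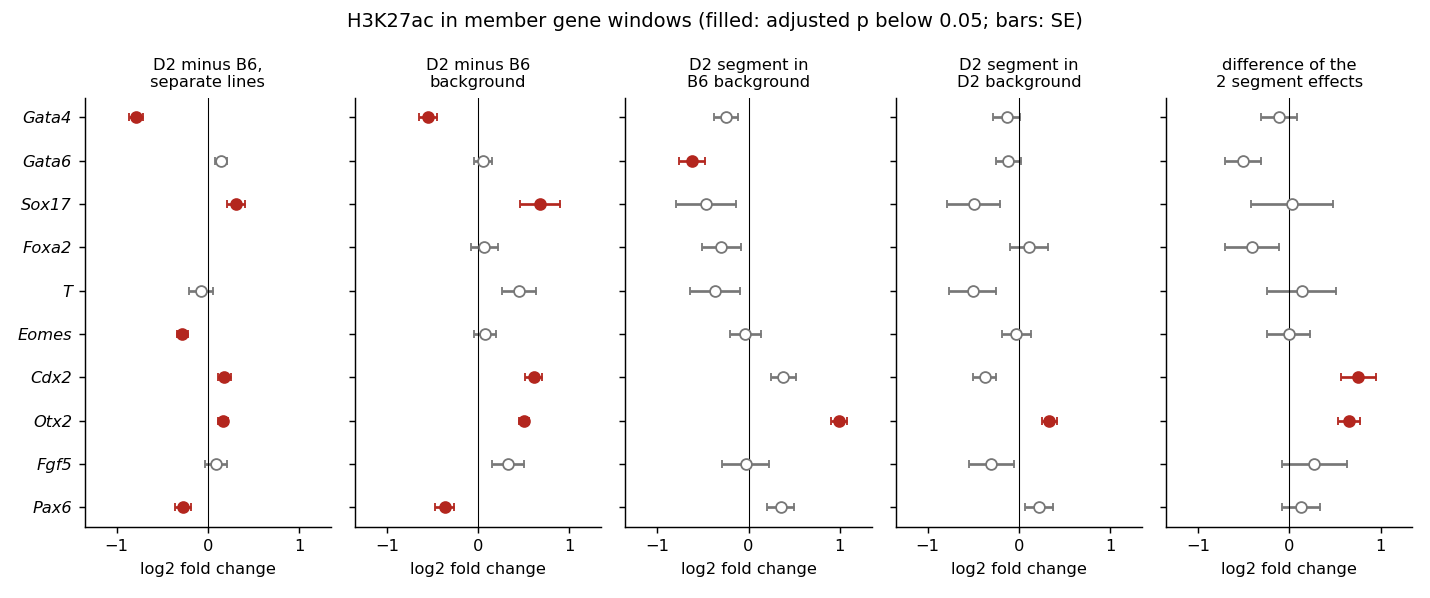
H3K27ac log2 fold changes of the member gene windows in each comparison, on the horizontal axis, with bars of 1 SE and filled points where the adjusted p is below 0.05. Otx2 stands at 0.99 for the segment in the B6 background and at 0.33 in the D2 background, and Gata4 at -0.79 between the separate lines.

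The reciprocal pair, D2 against D2-13B6, gave fewer calls. The Otx2 window alone was called, higher with the D2 segment by 0.33 (SE 0.08, adjusted p = 0.00904), beside 16.5% of all windows. D2 measured 78.3 and 74.6 CPM and D2-13B6 66.6 and 56.3 CPM. Over the gene body alone the value was 0.24 and not called (adjusted p = 0.4). Among regions, 1 of 51 was called, beside 6.67% of all regions, 1.43% higher and 5.24% lower: the one over the Cdx2 start, which was lower with the D2 segment, by -0.59 (SE 0.16, adjusted p = 0.0163). This call was lost without D2-13B6 replicate 3 (adjusted p = 0.0639) or D2 replicate 2 (0.0637) and with DESeq2 (0.144). The Otx2 region past the gene end gave 0.33 (SE 0.12, adjusted p = 0.117), and it was called without any 1 of B6-13D2 replicates 1 and 3, B6 replicates 1 and 2, D2-13B6 replicate 3, or D2 replicates 1 and 3, at 0.34 to 0.39. It was also called under scaling to library totals (0.38, adjusted p = 0.00112), with a mean of at least 20 counts (0.39, adjusted p = 0.00213) and with unsummed libraries (0.39, adjusted p = 6.25e-05). The inner Otx2 region was called with the same minimum (0.55, adjusted p = 0.0495) and with unsummed libraries (0.56, adjusted p = 0.0115). Without D2-13B6 replicate 1, 2 regions and 2 windows were called, the additional ones at the inner Otx2 start (0.72, adjusted p = 0.0184, and with it 0.49, adjusted p = 0.145) and the Cdx2 window (-0.37, adjusted p = 0.0298). Of the windows that were not called, Sox17 and T differed by -0.50 and -0.51 (adjusted p = 0.296 and 0.215). With a 50 kb extension T was called for the segment on both backgrounds (-0.63 on B6, adjusted p = 0.00388, and -0.69 on D2, adjusted p = 0.00182), and Gata6 on D2 (-0.45, adjusted p = 0.00695, against -0.11).

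The interaction is the effect of the D2 segment on the B6 background less its effect on the D2 background, and so tests whether the segment goes with the same change in both. In H3K27ac it was called for the windows of Otx2 (0.66, SE 0.12, adjusted p = 0.00107) and Cdx2 (0.76, SE 0.19, adjusted p = 0.00968), 2 of 10 beside 18.3% of all windows. For Otx2 both segment effects were positive, and the one on the B6 background was larger. For Cdx2 they had opposite signs, 0.38 (SE 0.14, adjusted p = 0.0515) on the B6 background and -0.38 (SE 0.13, adjusted p = 0.0522) on the D2 background, neither called as a window. The first was called without B6-13D2 replicate 1, D2-13B6 replicate 1 or D2 replicate 3, and the second without B6 replicate 1 or D2-13B6 replicate 1 or 2. Both were called over the gene body alone (0.81 and -0.58, adjusted p = 0.00552 and 0.0243), with DESeq2 size factors (0.0495 and 0.0484) and with unsummed libraries (0.0212 and 0.00697). The Gata6 window gave -0.50 (SE 0.20, adjusted p = 0.0884) and was called without D2-13B6 replicate 1 (-0.64, adjusted p = 0.00737), under scaling to library totals (-0.69, adjusted p = 0.0253) and with unsummed libraries (-0.57, adjusted p = 0.0165). The Otx2 call was lost over the gene body alone (0.57, adjusted p = 0.0989) and that of Cdx2 with a 50 kb extension (0.20, adjusted p = 0.494).

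Of 51 member regions 4 were called for the interaction, all positive, beside 5.30% of all regions, 3.93% positive and 1.37% negative. The Gata6 intron region chr18:11082011-11082550 was negative and not called (-1.36, SE 0.49, adjusted p = 0.094), but it was called without D2-13B6 replicate 1 (-1.43, adjusted p = 0.0296) and with unsummed libraries (-1.41, adjusted p = 0.0272). The region over the Cdx2 start gave 1.37 (SE 0.25, adjusted p = 0.000345), the largest of the 4. The Otx2 region past the gene end gave 0.74 (SE 0.18, adjusted p = 0.00981), and 0.73 without D2-13B6 replicate 1 (adjusted p = 0.0153). It was lost without B6-13D2 replicate 2 (adjusted p = 0.0502) or D2 replicate 2 (0.119). The inner Otx2 region gave 0.94 (SE 0.27, adjusted p = 0.0322), and 0.74 with an adjusted p of 0.081 without D2-13B6 replicate 1. It was also lost without B6-13D2 replicate 1 (0.0545), B6 replicate 1 (0.0524), B6 replicate 3 (0.085) or D2 replicate 2 (0.143), under library totals (0.0814) and with DESeq2 (0.0639). The Pax6 region over inner transcript starts gave 0.99 (SE 0.29, adjusted p = 0.03), and 0.86 without D2-13B6 replicate 1 (adjusted p = 0.0369). It was lost without B6-13D2 replicate 1 (0.0656) or 2 (0.0938), B6 replicate 2 (0.063) or 3 (0.104), or D2 replicate 2 (0.0826), under library totals (0.085) and with DESeq2 (0.0677).

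**Figure D4:**
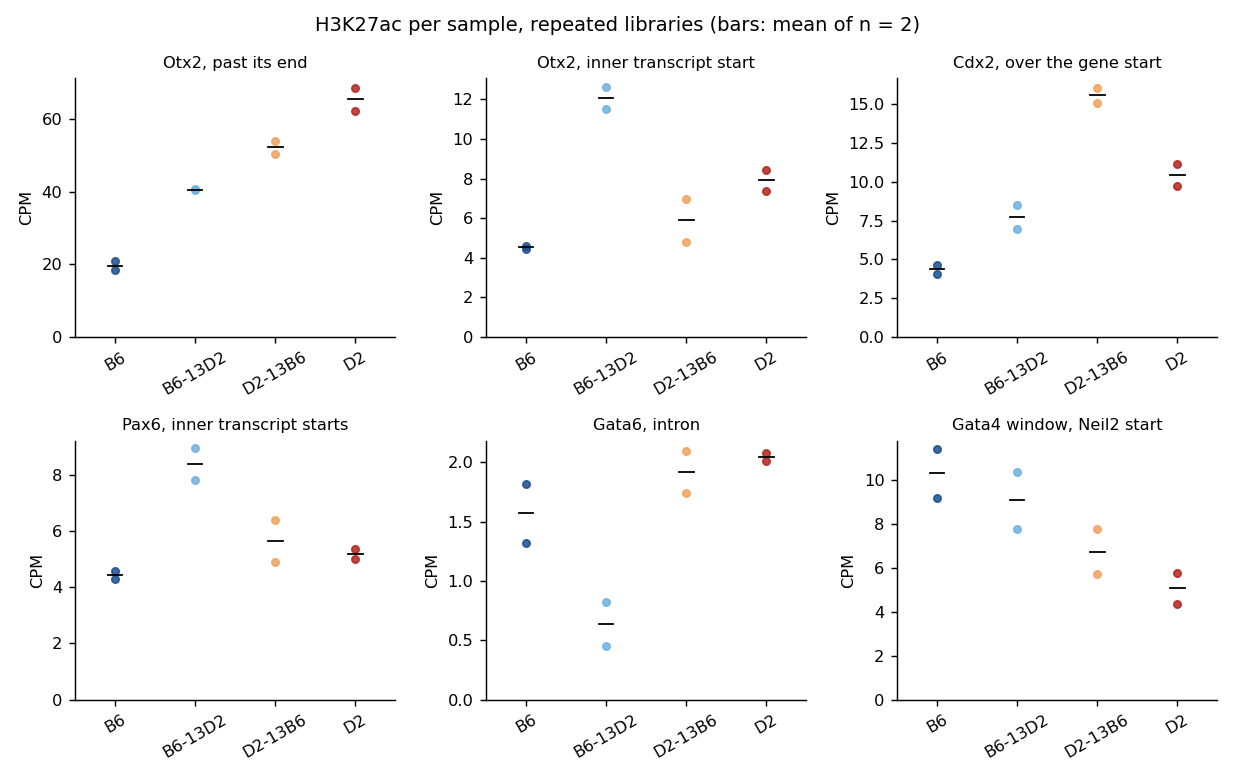
H3K27ac at 6 member regions in the repeated libraries, in CPM on the vertical axis, with 1 point per sample and bars at the mean of n = 2. At the Otx2 region past the gene end the lines rise from 18.3 CPM in B6 to 68.7 CPM in D2, and at the Cdx2 start D2-13B6 is highest, at 16.1 CPM.

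H3K9me3 at the members was not called in either segment comparison or in the interaction. The counts with edgeR were 0 of 10 windows in each, beside 0.179%, 0.0922% and 0.0154% of all windows, and 1 window in each had an unadjusted p under 0.05. Of 39 tested regions, 0 were called in each, beside 1.68%, 2.17% and 0.364% of all regions, with 1, 1 and 2 at an unadjusted p under 0.05. DESeq2 called 0 of those to which it gave an adjusted p, which were 8, 10 and 10 windows and 33, 25 and 19 regions. T gave the largest value for the segment on the B6 background, 0.56 (SE 0.24, adjusted p = 0.634), and Pax6 for the D2 background, 0.46 (SE 0.20, adjusted p = 0.471). Pax6 depended on D2-13B6 replicate 1, which measured 108.3 CPM against 67.8 and 62.6 CPM in the other libraries of that line. Without it, the Pax6 window differed by 0.73 (adjusted p = 0.0256) and its region over inner transcript starts by 0.91 (adjusted p = 0.0116, and with it 0.57, adjusted p = 0.285).

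**Figure D5:**
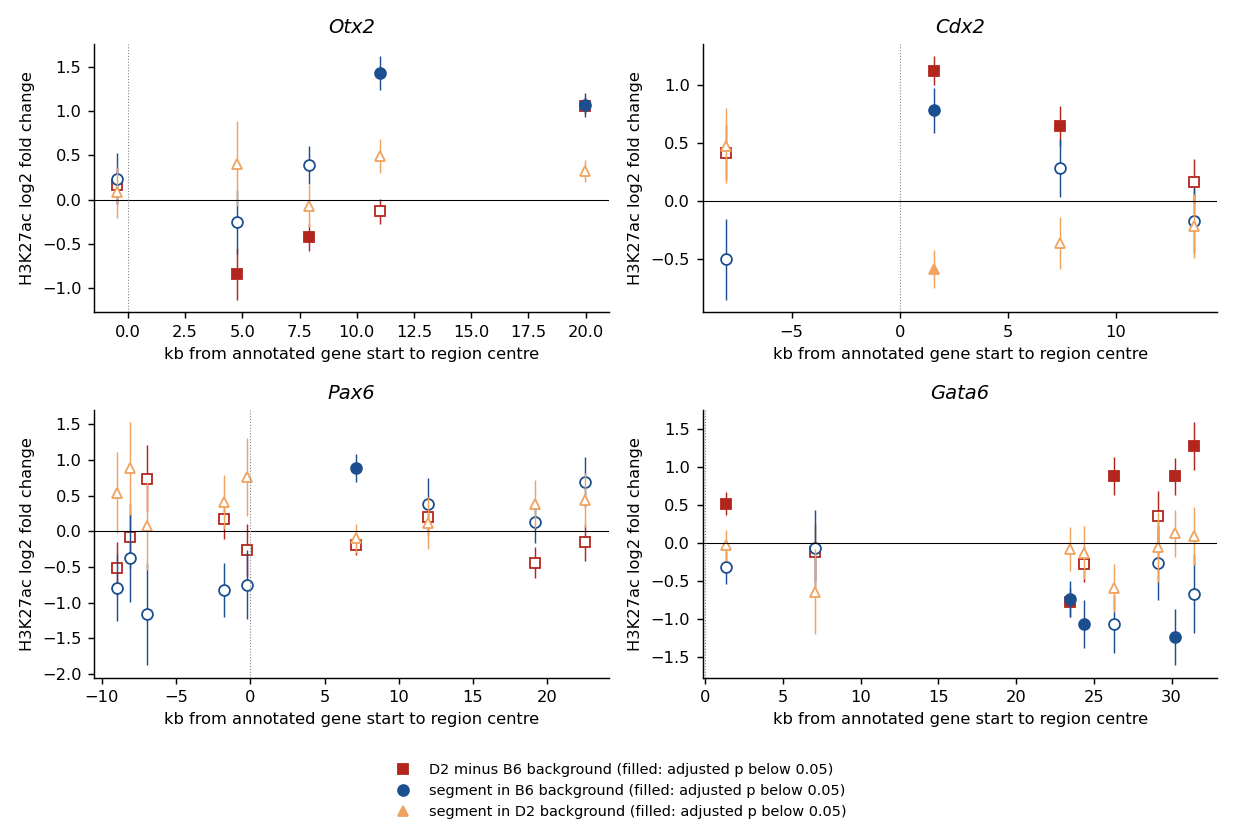
H3K27ac log2 fold changes (vertical axis, bars of 1 SE) of regions at Otx2, Cdx2, Pax6 and Gata6 in the repeated libraries, against the distance in kb from the annotated gene start to the centre of the region. Filled points have an adjusted p below 0.05. At Otx2 the region past the gene end is at 1.06 for both the background and the segment in the B6 background, and at 0.33 for the segment in the D2 background.

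Other genes of the same lineages were described by 5 lists of 10 genes. For the segment on the B6 background, where 26.4% of all windows were called, H3K27ac was called at 4 of 10 epiblast genes, with Zic2, Zic5 and Foxd3 higher and the DNA methyltransferase gene Dnmt3a lower (-0.94, SE 0.08, adjusted p = 2.73e-07). Of the 10 trophectoderm genes 6 were called, 2 higher and 4 lower. Tfap2c rose by 1.02 (SE 0.11, adjusted p = 5.06e-06), while the keratin genes Krt8 and Krt18 were among the lower ones. The lists of primitive endoderm, mesoderm and neural genes had 1, 3 and 3 of 10 called. List medians lay between -0.10 for trophectoderm and 0.06 for neural genes. Of the pluripotency genes 6 of 10 were higher and 0 lower, with a median of 0.21, and of the fibroblast genes 4 were higher and 0 lower, with a median of 0.57.

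On the D2 background of the repeated lines, 8 of 10 trophectoderm genes were lower in H3K27ac and 1 was higher, beside 57.2% of all windows called in either direction, with a list median of -0.37. Cdx2, which acts in the same lineage, was higher. Of the epiblast genes 5 of 10 were higher and 1 lower, with a median of 0.45, and Lef1 rose by 1.59 (SE 0.07, adjusted p = 3.09e-12). The primitive endoderm list was split, 4 higher and 4 lower, with Hnf4a higher by 1.30 (SE 0.06, adjusted p = 4.51e-12). Of the neural genes 4 were higher and 2 lower, with a median of 0.11, and of the mesoderm genes 4 and 1, with a median of 0.17. Of the fibroblast genes 5 were higher and 2 lower, with a median of 0.21, and of the pluripotency genes 4 and 1, with a median of -0.01. Against most called genes of its list, the neural gene Olig2 was lower by -2.77 (SE 0.09, adjusted p = 1.71e-13). In the separate lines, beside 54.0% of all windows, the neural list ran the other way, 2 higher and 4 lower in D2 (median -0.18), the epiblast list had 3 higher and 2 lower (median 0.00), and the trophectoderm list 1 higher and 6 lower (median -0.21). There Olig2 was likewise lower in D2, by -1.75 (SE 0.07, adjusted p = 1.28e-11), and its H3K9me3 was higher on the D2 background of the repeated lines, by 0.65 (SE 0.17, adjusted p = 0.00875).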

How the data were processed

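Chromatin was cut with MNase and precipitated for H3K9me3 or H3K27ac, and the authors deposited whole-number read counts per region in 4 tables, per the labels. Trimmomatic 0.39, HISAT2 2.2.1, MACS 1.4.2, bedtools 2.9.2, edgeR and the build mm10 are named in the submitters' processing notes. How reads of D2 alleles were mapped is not given in the sources used here. In the tables, 3 columns matched no sample and were not used.

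The deposited counts of regions, and their sums over gene windows, entered edgeR 4.0.16 (R 4.3.3): TMM scaling, filterByExpr with a minimum count of 10 and total of 15, the quasi-likelihood test, and Benjamini-Hochberg adjustment over all regions or genes tested, with a threshold of 0.05. The script was tested on simulated data. Levels are CPM, with the depth taken as all counts in regions times the TMM factor. That factor was computed separately for single regions and for gene windows, so the CPM of regions and of windows have different depths. Libraries of 1 line with a chi-square per degree of freedom under 1 were summed. DESeq2 1.42.0 was an alternative, with library totals, a mean of at least 20 counts, a 50 kb extension, the gene body alone, and each replicate left out.

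The members and gene lists were chosen with earlier results of these data known. All 10 members are named. The rule for regions took those over gene starts, those with most signal and the called ones with the largest changes. Not all of these are printed, and which are, and the other regions named, was chosen after their values were seen.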

Additional observations from a re-analysis of the deposited data

Results flagged for a closer look

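For H3K27ac, the effect of the D2 segment differed between the B6 and D2 backgrounds at 6 places, each by edgeR's test of the interaction itself. These were 2 of 10 windows, beside 18.3% of all windows, and 4 of 51 regions, beside 5.30% of all regions. The Cdx2 window differed by 0.76 and the region over its start by 1.37 on the log2 scale. The Otx2 window differed by 0.66, the region past its end by 0.74 and the region at its inner transcript start by 0.94. The Pax6 region over inner transcript starts differed by 0.99. The calls at this Pax6 region and at the inner Otx2 start were lost under library totals and with DESeq2. Each genotype is 1 line, so line and segment cannot be told apart.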

How the results depend on the processing

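Of the values of single genes and regions, called values changed sign in 5 cases, all in H3K27ac and all with another window size. Between separate lines Gata4 became 0.11 over the gene body alone and Otx2 -0.14 with a 50 kb extension. On the D2 background Otx2 became -0.47 over the gene body and -0.10 with 50 kb, and Sox17 -0.32 with 50 kb. The cause was not tested.

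Counts of called members moved by over 1.5 times as follows. Between separate lines, H3K9me3 regions went from 4 to 1 with a mean of at least 20 counts and to 2 with DESeq2, H3K9me3 windows from 2 to 1 with library totals and with DESeq2, and H3K27ac regions from 12 to 22 with 50 kb. For the background, H3K9me3 regions went from 3 to 5 with 50 kb, H3K9me3 windows from 0 to 1 with library totals and with the gene body, H3K27ac regions from 15 to 40 and windows from 5 to 3 with 50 kb. For the segment in B6, H3K27ac regions went from 8 to 4 with DESeq2 and 17 with 50 kb, and windows from 2 to 4 with the gene body. For the segment in D2, regions went from 1 to 2 with library totals, 3 with a mean of at least 20 counts, 0 with DESeq2, 3 with unsummed libraries and 5 with 50 kb, and windows from 1 to 2 with DESeq2 size factors, 2 with unsummed libraries and 3 with 50 kb. Interaction regions went from 4 to 2 with library totals and with DESeq2, and windows from 2 to 1 with the gene body and with 50 kb. Within 2.5 kb of the start the median percentile was 36.6 in the separate lines and 31.3 in the repeated libraries for H3K27ac.

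Samples share only a replicate number: deviations of same-numbered samples correlated at -0.085 to 0.20. With the replicate block on unsummed libraries, H3K27ac regions called for the segment in D2 were 3 and windows 2, as without the block on those libraries, and windows for the segment in B6 were 4, against 3 on those libraries without it.

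With 1 replicate left out, where a lone sample is assumed to vary like the other groups, H3K27ac windows called were 3 to 6 between strains (3 without B6 replicate 3), 5 to 6 for the background, 2 to 4 and 1 to 2 for the segment in B6 and D2, and 2 to 3 for the interaction. H3K27ac regions were 9 to 12, 13 to 17, 3 to 10 (3 without B6-13D2 replicate 2), 0 to 2 and 1 to 4 (1 without D2 replicate 2). H3K9me3 windows were 1 to 2, 0 to 4 (4 without D2-13B6 replicate 1), 0 to 0, 0 to 1 and 0 to 0, and regions 2 to 5, 2 to 4, 0 to 0, 0 to 1 and 0 to 0.

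Library totals shifted the median of all gene windows by 0.15 (H3K9me3, strains), 0.26 (H3K9me3, background), -0.16 (H3K27ac, segment in B6) and -0.19 (H3K27ac, interaction). The share of higher calls went from 50.9% to 70.2%, 46.4% to 82.7%, 62.3% to 23.6% and 68.4% to 25.8%. In H3K27ac it also went from 47.9% to 63.5% (windows, strains), 52.2% to 66.0% (windows, background), 36.4% to 46.7% (windows, segment in D2), 58.5% to 39.5% (regions, segment in B6) and 74.2% to 50.1% (regions, interaction). DESeq2 gave no adjusted p to 8, 22, 14 and 41 of the 51 H3K27ac regions for the background, the segment in B6, that in D2 and the interaction. H3K9me3 depth let only 14 of 59 member regions be tested between the separate lines.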
